A study of Mus musculus with 8 samples.

Results

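Among the regions of open chromatin found by ATAC-seq in mouse common myeloid progenitors, 5345 were absent from the peak lists of the population C18 and present in those of every other library. ATAC-seq maps open DNA by the insertion of sequencing adapters with a transposase. The regions were chosen by peak calls alone. The 8 lists of the peak caller F-Seq were merged wherever peaks overlapped or touched, which gave 207739 regions, and a call in a library needed at least 1 base of overlap with a peak. Of these, 54316 were called in all 6 libraries of C2, C13 and C10, and 5345 of the 54316 (9.84%) were called in neither C18 library. All cells came from marrow of wild-type mice of the C57BL/6 strain and were sorted as KIT+ and CD16/32-, with 2 libraries per population and 40000 to 50000 cells per preparation. C18 cells were CD34dim, CD41+, CD9+ and CD48dim. C2 cells were CD34bright, CD41+ and CD9+, C13 cells were CD34dim but CD41- and CD9-, and C10 cells shared the phenotype of C18 except for bright CD48. The populations are defined by surface phenotype only, and the series text names partly other clusters than the sample titles, so the names here are those of the titles. Whether the paired libraries stem from different mice is not stated, so each p-value reflects the scatter of these libraries alone, and that scatter may be technical.

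Common myeloid progenitors are the marrow source of platelets, red cells and the granulocytic and monocytic white cells. Open regions at promoters are largely shared between blood cell types, while open regions far from start sites, many of them enhancers, differ more between lineages and carry sites for factors such as the GATA, RUNX, ETS and C/EBP families. CD41 is the integrin alpha IIb chain of megakaryocytes and platelets, CD9 a tetraspanin of the same lineage, and CD48 belongs to the SLAM group of receptors.

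The sequences below are promoter windows, from 250 bases before to 50 bases after the start site, of genes at which a region missing from C18 alone touched the window. They are given because promoters were rare among these regions. Most were picked because the genes act in mature immune cells. The share of such genes among the 191 regions at promoter windows was not computed. Windows of other genes, such as Cdx2, Pax6 and Col1a2, were touched too. Siglech encodes a lectin of plasmacytoid dendritic cells, Cd300c an immunoglobulin-like receptor of myeloid cells, Prf1 the pore-forming protein perforin of cytotoxic lymphocytes, Itgax the integrin chain CD11c of dendritic cells, and C1qc a chain of complement C1q. Spz1 encodes a transcription factor of the testis and is shown for its repeat. The sequences are from RefSeq (GRCm38.p6, the assembly of mm10), 5′ to 3′ on the strand of the gene. Capitals mark matches on either strand to AGATAA, a motif of GATA factors, TGTGGT, a motif of RUNX factors, and AGGAAG, a motif of ETS factors. The windows lie at chr7:55767934-55768233 on the plus strand (Siglech), chr11:114960458-114960757 on the minus strand (Cd300c), chr10:61297586-61297885 on the plus strand (Prf1), chr7:128129300-128129599 on the plus strand (Itgax), chr4:136892865-136893164 on the minus strand (C1qc) and chr13:92576183-92576482 on the minus strand (Spz1).
Siglech: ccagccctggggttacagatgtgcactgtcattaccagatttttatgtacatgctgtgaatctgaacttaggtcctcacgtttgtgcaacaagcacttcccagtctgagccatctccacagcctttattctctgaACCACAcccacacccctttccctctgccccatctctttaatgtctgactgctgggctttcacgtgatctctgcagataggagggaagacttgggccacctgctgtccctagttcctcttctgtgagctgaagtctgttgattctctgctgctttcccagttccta
Cd300c: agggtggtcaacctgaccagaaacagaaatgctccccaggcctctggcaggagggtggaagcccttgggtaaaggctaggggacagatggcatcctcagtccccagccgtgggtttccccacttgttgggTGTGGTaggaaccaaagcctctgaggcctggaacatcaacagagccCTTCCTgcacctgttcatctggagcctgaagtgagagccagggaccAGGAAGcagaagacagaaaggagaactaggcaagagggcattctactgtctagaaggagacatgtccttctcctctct
Prf1: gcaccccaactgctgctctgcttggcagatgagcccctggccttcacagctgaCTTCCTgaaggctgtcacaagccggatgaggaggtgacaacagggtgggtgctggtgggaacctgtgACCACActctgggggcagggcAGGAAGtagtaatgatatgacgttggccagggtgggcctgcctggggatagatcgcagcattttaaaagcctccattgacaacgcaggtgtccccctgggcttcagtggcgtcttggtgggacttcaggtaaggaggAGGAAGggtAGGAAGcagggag
Itgax: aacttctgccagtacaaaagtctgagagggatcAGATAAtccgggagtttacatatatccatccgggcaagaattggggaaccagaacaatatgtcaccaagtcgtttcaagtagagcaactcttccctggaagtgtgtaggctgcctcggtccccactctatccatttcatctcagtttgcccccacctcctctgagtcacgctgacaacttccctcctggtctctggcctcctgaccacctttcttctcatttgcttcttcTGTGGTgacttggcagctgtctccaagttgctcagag
C1qc: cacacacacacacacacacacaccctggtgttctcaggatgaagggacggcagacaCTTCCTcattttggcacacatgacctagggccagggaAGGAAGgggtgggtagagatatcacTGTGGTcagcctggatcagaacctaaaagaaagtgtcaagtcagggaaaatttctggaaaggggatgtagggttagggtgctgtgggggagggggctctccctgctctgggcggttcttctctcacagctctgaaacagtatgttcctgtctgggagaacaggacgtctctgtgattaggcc
Spz1: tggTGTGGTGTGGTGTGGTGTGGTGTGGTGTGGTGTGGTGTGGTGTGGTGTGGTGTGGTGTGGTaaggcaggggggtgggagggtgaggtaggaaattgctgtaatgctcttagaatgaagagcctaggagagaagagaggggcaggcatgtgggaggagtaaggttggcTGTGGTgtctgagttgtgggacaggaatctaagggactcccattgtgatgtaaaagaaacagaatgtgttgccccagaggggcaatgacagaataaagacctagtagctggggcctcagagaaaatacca
The Spz1 window held 13 overlapping or separate matches to TGTGGT, most of them in a short tandem repeat at its 5′ end, and the windows of Siglech, Cd300c, Prf1, Itgax and C1qc held 1 each.

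The absence from C18 was measured against the smaller extent of the C18 lists. Each F-Seq list holds 100000 peaks, but the C18 lists covered 62.5 and 78.9 Mb, against 88.8 to 100.7 Mb in the other 6 libraries. The second caller, HOMER, listed 72379 and 83548 peaks in C18, against 171712 to 260118 in the other libraries. When each list was cut from its weak end to the covered length of the shortest, 820 of 28677 regions (2.86%) were missing from C18 alone. With a single C18 library the number was 10640 without replicate 1 and 9432 without replicate 2, because a region then had to be absent from 1 list only. By the same rule, 2286 of 42733 regions (5.35%) were missing from C13 alone, 259 of 41454 (0.625%) from C2 alone and 89 of 40253 (0.221%) from C10 alone. The read depth is unknown, and its part in these numbers was not tested. The choice of the regions rests on these calls, so they are a description.

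HOMER, which read the same libraries, also listed almost no peak at these regions in C18. A HOMER peak lay at 7 of the 5345 regions (0.131%) in C18 replicate 1 and at 30 (0.561%) in replicate 2, with no region in both. In the remaining libraries HOMER peaks lay at 77.3% and 84.3% of the regions in C2, at 96.4% and 96.1% in C13 and at 91.4% and 94.7% in C10. At the other 48971 regions of the 6 libraries the C18 share was 67.7% and 65.2%. Regions missing from C13 alone had a HOMER peak in a C13 library at 32.5%, those missing from C2 alone in a C2 library at 30.1% and those missing from C10 alone in a C10 library at 61.8%, against 0.692% for C18. HOMER lists of C18 were the shortest, and what share of this gap comes from their length was not tested. At 3664 regions both callers gave the same pattern, with HOMER peaks in all 6 libraries and in neither C18 library.

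Most of the regions were weak and narrow peaks in the populations that had them. Strength is given as a percentile rank, in which 100 is the strongest peak of a library and the value of a region is that of its strongest peak. The median of the mean rank over the 6 libraries was 46.6 for the regions missing from C18 alone, 51.5 for the 9330 regions called in 1 C18 library and 75.2 for the 39641 called in both. Median width was 1058 bases against 1542 bases for the other regions of the 6 libraries. Just outside the rule, regions called in 1 C18 library had a median C18 rank of 47.3 in replicate 1 and 44.7 in replicate 2, against 77.0 and 76.1 where both had a call. Just inside it, the nearest C18 peak was 1 base away at the closest and 3.15 kb away at the median, and 18.8% of the regions had one within 1 kb. The 54316 regions were divided by mean rank into 10 bins of equal size, from bin 1, the weakest, to bin 10. The share missing from C18 alone was 29.7% in bin 1 (1612 of 5432), 8.71% in bin 5 and 0.0368% in bin 10 (2 of 5432).

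**Figure D1:**
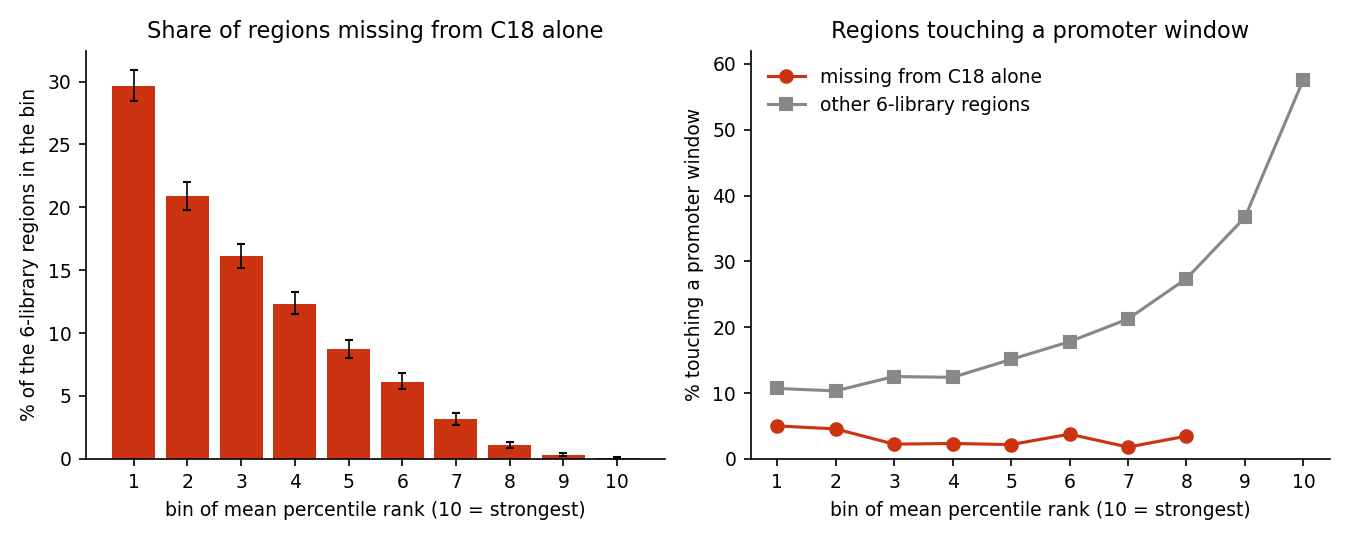
Left, the share of the regions called in all 6 libraries of C2, C13 and C10 that were missing from C18 alone, by bin of mean percentile rank, with 95% Wilson intervals that cover counting error only. Right, the share that touched a promoter window among regions missing from C18 alone (red circles, bins with at least 20 regions) and among the other regions (grey squares); the red points stay between 1.79% and 5.0% while the grey points climb to 57.6%.

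The regions missing from C18 alone lay mostly away from promoters. A promoter window was touched by 191 of the 5178 regions that could be assessed (3.69%, 95% Wilson interval 3.21% to 4.24%), against 11000 of 47388 other regions (23.2%). It was lower than among other regions of like rank. In bin 1 it was 5.0% against 10.7%, in bin 5 2.17% against 15.1% and in bin 8 3.45% against 27.4%. Regions missing from C13 alone (4.34%) and from C2 alone (5.28%) also rarely touched a promoter window, while 14.6% of the 89 missing from C10 alone did. Of the regions that touched a promoter window 1.71% were missing from C18 alone, against 11.2% of the others within 10 kb of a listed start site, 12.1% of those 10 to 100 kb away and 14.0% of those over 100 kb away. No gene body of the RefSeq table covered 38.2% of the regions, against 26.7% of the other regions.

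The promoter windows that were touched differed in base composition from those of the other regions. The 223 windows had a median GC content of 55.7%, against 60.7% for the 14832 windows at other regions and 52.7% for all 32817 listed windows. The letters GGGCGG of the GC box were present on either strand in 40.4% of the 223 windows, against 60.7% at other regions and 35.6% of all windows. TGTGGT was present in 19.3%, 13.2% and 16.8% of the same sets, AGATAA in 9.42%, 6.49% and 11.2%, and AGGAAG in 39.0%, 34.2% and 35.4%. Such matches describe letters in the windows and not binding. The windows were not matched on the rank of their regions, and the part of rank in these differences was not tested. Of the regions that touched a window, bin 1 of mean rank held 78 missing from C18 alone and 396 others. Bin 10 held 0 and 3030. On chromosome X, 179 of 1216 regions (14.7%) were missing from C18 alone, against 9.73% on the autosomes. The C18 lists held 1.67% and 1.77% of their peaks on chromosome X, the C2 lists 1.83% and 1.97%, and the remaining lists 2.47% to 2.59%.

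By their medians over the whole set, the regions missing from C18 alone ranked higher in C13 than in C2 and C10. Their median rank was 43.9 and 42.5 (C2), 56.3 and 54.3 (C13) and 46.9 and 47.3 (C10). For the other regions of the 6 libraries C13 was the lowest, with medians of 73.7 and 74.0 (C2), 70.2 and 70.1 (C13) and 73.2 and 73.4 (C10). The difference was large at the upper end of the range. Among the strongest 10% of all peaks in both libraries were 317 of the regions in C13 (5.93%), 4 in C2 (0.0748%) and 6 in C10 (0.112%). Of the other regions 16.9% in C13, 17.5% in C2 and 17.4% in C10 were among them. The regions missing from C18 alone were thus less frequent there in each population, and their share was lowest in C2 and C10. By the mean of its libraries C13 was the highest of these populations at 57.5% of the regions, against 27.9% of the other regions.

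**Figure D2:**
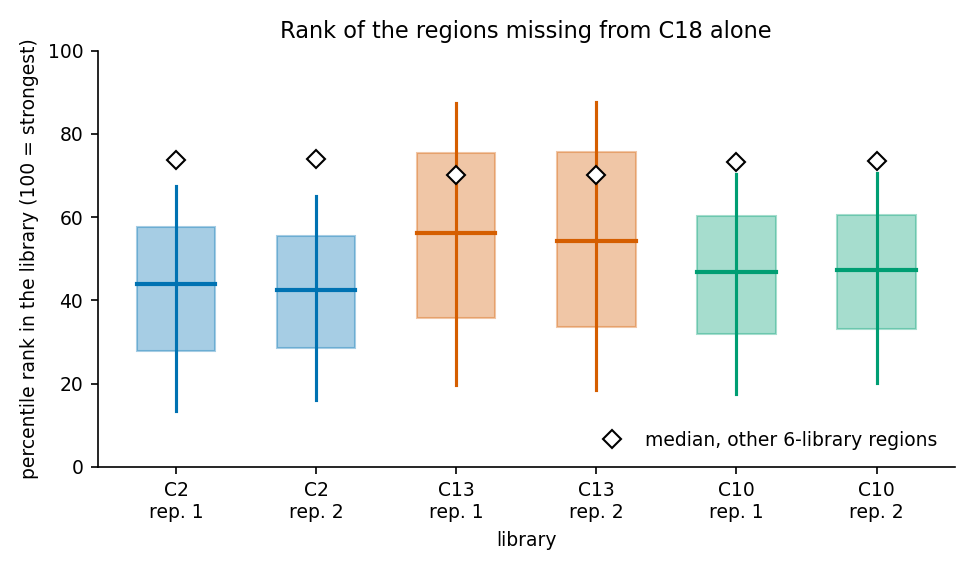
Percentile rank of the 5345 regions missing from C18 alone in each library that called them. Boxes span the quartiles with the median as a line, vertical lines run from the 10th to the 90th percentile, and diamonds give the median of the other 6-library regions; the upper quartile is 75.5 and 75.7 in C13 and at most 60.6 in C2 and C10.

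The strongest regions were picked by their mean rank over the 6 libraries. That mean includes both C13 libraries, so the order of the populations among them is a description and no further support. The 20 strongest regions seen by both callers had mean ranks of 86.5 to 96.5. Both C13 libraries lay above both C10 libraries at 19 of the 20, and above both C2 libraries at 19. The strongest region lay between genes on chromosome 2 (160626910 to 160628476), 6.84 kb from the start of LOC115489488, and ranked 94.4 and 94.0 (C2), 99.5 and 99.5 (C13) and 95.6 and 95.8 (C10). The next, 120 kb from Golim4, a Golgi membrane protein gene, ranked 92.8 and 91.3 (C2), 99.5 and 99.5 (C13) and 93.9 and 95.5 (C10) (chromosome 3, 75834937 to 75836470). No C18 peak came closer to it than 18.3 kb. Further regions lay in the bodies of the adhesion gene Cadm1, the zinc finger gene Zfp536, the growth factor gene Nrg1 and Psd3, an exchange factor gene for ARF GTPases. The Psd3 region had the widest spread of the 20, with ranks of 61.7 and 78.8 (C2), 99.8 and 99.5 (C13) and 94.95 and 93.5 (C10). A region in Nrxn3, a neuronal adhesion gene, was the exception, with ranks of 92.0 and 92.2 (C2), 91.5 and 86.6 (C13) and 94.7 and 91.8 (C10). Another lay 44.0 kb from Lilr4b, an inhibitory leukocyte receptor gene, at ranks of 81.9 and 78.2 (C2), 97.1 and 98.0 (C13) and 86.6 and 87.8 (C10).

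**Figure D3:**
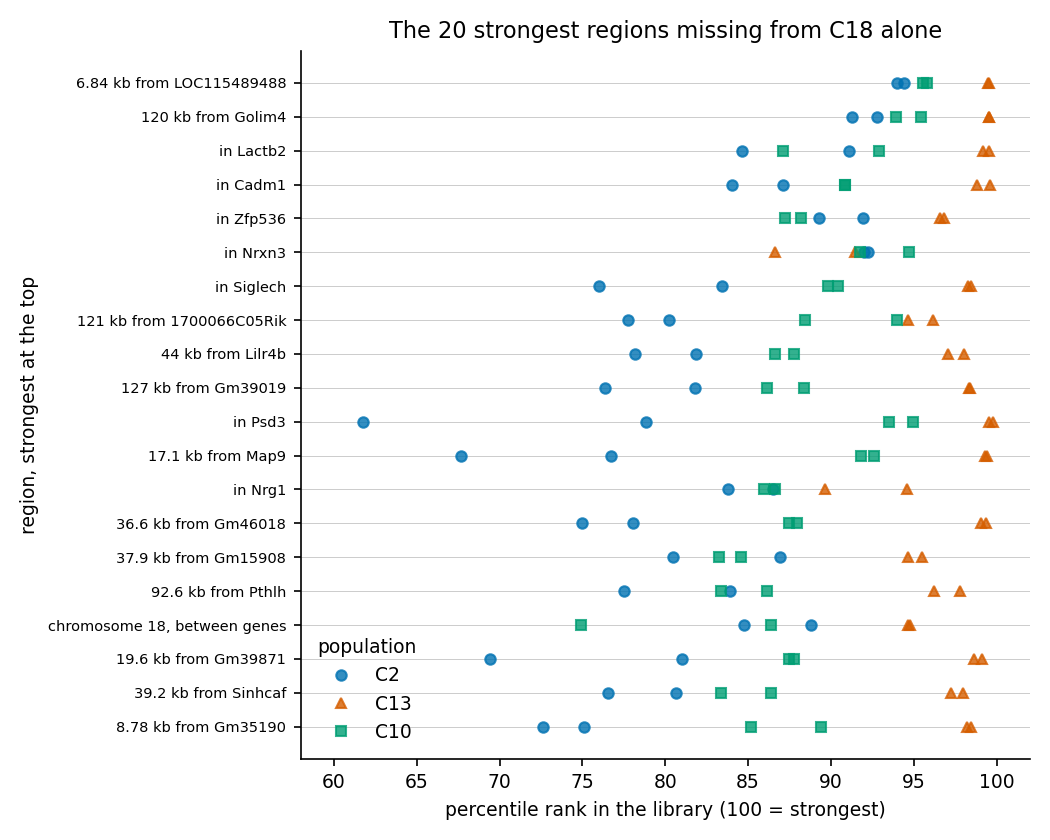
Percentile rank in each library of C2 (circles), C13 (triangles) and C10 (squares) for the 20 strongest regions missing from C18 alone, labelled by the gene body they lie in or by the nearest listed start site. The C13 triangles are the rightmost points for 19 of the 20 regions, and the Nrxn3 region is the exception.

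The ranks in C13 and C10 were not used to choose the regions, beyond the call in all 6 libraries. Their difference was tested with limma over all 54316 regions. The regions also had to be absent from C18, whose phenotype C10 shares except for CD48. Whether that choice bears on the difference was not tested. Of the regions missing from C18 alone, 1200 were higher in C13 than in C10, against a background of 9.23% of all regions called in that direction, and 231 were lower, against a background of 13.9% (Benjamini-Hochberg adjusted p under 0.05). Together they were 1431, against a background of 23.1% called in either direction, and the 1200 were 22.5% and the 231 were 4.32% of the regions. The median difference was 9.97 rank points, against -1.22 over all regions. The median moved little when a library was left out, between 9.57 and 10.99, but the calls did not hold up as well. They numbered 74 higher and 78 lower without C13 replicate 1, and 32 and 40 without C13 replicate 2. The share called higher was then 1.38% against 1.45% of all regions without C13 replicate 1, and 0.599% against 0.567% without C13 replicate 2, so the higher share of calls in C13 was not seen without either C13 library. The share called lower was 1.46% against 8.91% of all regions, and 0.748% against 6.66%. Without C10 replicate 1 there were 176 higher (3.29% against 1.62% of all regions) and 29 lower, and without C10 replicate 2 there were 706 higher (13.2% against 6.06%) and 85 lower. On the scale of log2 covered bases 14 were higher (0.262% against 0.103% of all regions) and 4 lower (0.0748% against 0.298%).

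The same regions were lower in C2 than in C13. Of the 5345 regions 1764 (33.0%) were lower in C2, against a background of 14.8%, and 310 were higher, against 20.5% (35.3% of all regions in either direction), with a median difference of -12.6 rank points against 2.08 over all regions (limma, adjusted p under 0.05). The median difference was -12.6 without C13 replicate 1, against 2.04 over all regions. Without C13 replicate 2 it was -13.7, against 1.72. On log2 covered bases 319 were lower (5.97% against 1.92% of all regions) and 6 higher (0.112% against 0.989%). With log2 signal over the library median 2087 were lower (39.0% against 22.0%) and 702 higher (13.1% against 19.4%). C2 minus C10 gave the fewest calls. Here 214 regions were lower in C2, against a background of 3.15%, and 30 higher, against 3.2% (6.35% of all regions in either direction), with a median difference of -4.06 against -0.15. On log2 signal over the library median 431 were lower (8.06% against 10.97% of all regions) and 173 higher (3.24%, also a smaller share than of all regions). The median difference on that scale was -0.0337, against -0.0779 over all regions. Calls of lower in C2 were thus not more frequent there than over all regions. No region passed by limma when either C10 library was left out, where 902 and 970 regions had an unadjusted p under 0.05. Without C13 replicate 1 or 2, which enter only the estimate of spread, 14 and 13 passed. The 3 comparisons share libraries and are not independent of each other.

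**Figure D4:**
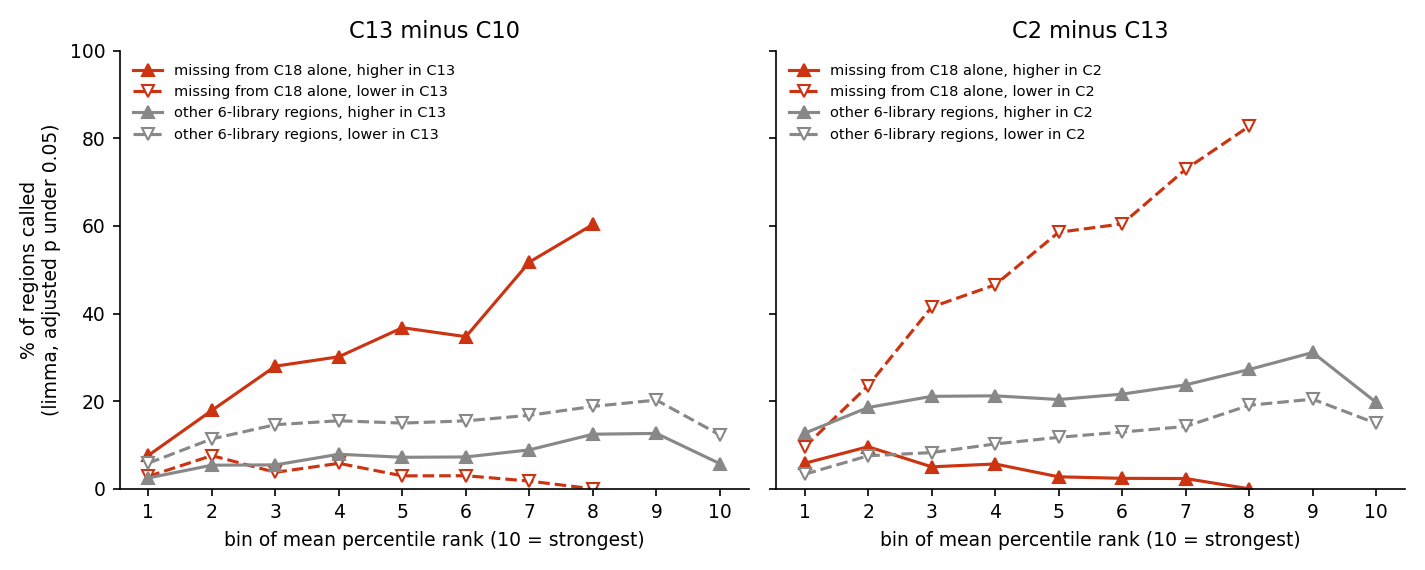
Share of regions called higher (upward triangles, solid) or lower (downward triangles, dashed) for C13 minus C10 and for C2 minus C13, by bin of mean percentile rank, in regions missing from C18 alone (red) and in the other 6-library regions (grey); bins with under 20 regions are left out. In bin 8 60.3% of the red regions were higher in C13 than in C10, against 12.5% of the grey ones.

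Among regions of like strength the calls differed as well, but the order of the populations was not the same in the weakest bin. The bins were cut on the mean of the same ranks that are compared, C13 included. The change of order from bin to bin may follow in part from this, which was not tested. In bin 5 of mean rank 36.8% of the regions missing from C18 alone were higher in C13 than in C10, against 7.20% of the other regions, and in bin 7 51.8% were, against 8.90%. In bin 1, which held 1612 of the 5345 regions, the shares were 7.63% and 2.49%, but the median differences of the regions missing from C18 alone were 0.05 rank points for C13 minus C10, 1.16 for C2 minus C10 and 2.03 for C2 minus C13, so C13 was not the highest there. In bin 5 these medians were 19.5, -9.20 and -27.8.

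Over all regions missing from C18 alone the median differences were 9.97 (C13 minus C10), -4.06 (C2 minus C10) and -12.6 (C2 minus C13) rank points. The regions named here were among the 5 with the smallest p in their comparison and direction. Their differences are thus not typical of the set. The higher ones included a region in Abcc4, an exporter of organic anions also found in platelet granules, which ranked 96.8 and 96.1 in C13 and 64.0 and 65.2 in C10, with 63.3 and 60.2 in C2 (difference 31.9, SE 4.32, adjusted p = 0.00211, limma). A region in Camk1d, a calmodulin-dependent kinase gene, ranked 82.7 and 84.5 in C13 and 18.3 and 26.3 in C10 (difference 61.4, SE 8.31, adjusted p = 0.00211, limma). At both, the 2 C13 libraries lay above all 4 libraries of C2 and C10. A region in Stx7, an endosomal syntaxin gene, ranked 67.9 and 67.3 in C2 and 97.4 and 98.5 in C13, where C10 had 81.9 and 83.7 (C2 minus C13, difference -30.4, SE 2.50, adjusted p = 0.000341, limma). Between C2 and C10, a region 17.1 kb from Map9, a microtubule-associated protein gene, ranked 67.7 and 76.7 in C2 and 92.6 and 91.8 in C10 (difference -19.98, SE 2.66, adjusted p = 0.0247, limma), and 1 in Abl1, a tyrosine kinase gene, 73.3 and 72.9 in C2 and 23.7 and 34.0 in C10 (difference 44.3, SE 7.51, adjusted p = 0.027, limma). Over the 30 calls with the smallest p in each comparison and direction, 20 held in all or all but 1 of 12 alternatives, and the 10 of C2 minus C10 held in 5 to 9 of them.

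A minority ran the other way and were weakest in C13. At Cpa3, the carboxypeptidase of mast cells, a region 1.34 kb from the start site (chromosome 3, 20243520 to 20244706) ranked 91.6 and 92.8 (C2), 45.9 and 44.5 (C13) and 89.5 and 85.8 (C10). C13 lay below C10 by 42.5 rank points (SE 4.21, adjusted p = 0.000546, limma), and the C13 and C10 libraries did not overlap. The nearest C18 peak lay 949 bases away, and the Cpa3 promoter window itself had a peak in both C18 libraries and in neither C13 library. A region in Lrrtm4, a synaptic adhesion gene, ranked 87.4 and 87.3 (C2), 31.0 and 27.8 (C13) and 88.3 and 81.2 (C10) (C13 minus C10 -55.4, SE 5.69, adjusted p = 0.000624, limma). Near Cxcr2, a chemokine receptor gene of neutrophils, a region ranked 88.3 and 85.1 (C2), 15.0 and 4.54 (C13) and 55.2 and 73.9 (C10) (C13 minus C10 -54.8, SE 8.396, adjusted p = 0.0037, limma).

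The regions missing from C18 alone were spread over many loci. A locus is a protein-coding gene body with 10 kb to each side, and 3098 of the 16713 loci with a 6-library region held at least 1, most of them (2431) exactly 1. Snx29, a sorting nexin gene, held 10 of its 32 regions, 1 of which ranked 49.5 and 26.8 (C2), 97.4 and 98.2 (C13) and 40.7 and 70.8 (C10). Maml3, a coactivator of Notch signalling, held 7 of 24. The next loci held 6 each, among them Fam102b (of 10), the zinc finger gene Tshz2 (of 12), Vav3 (of 16), Ppfibp2 (of 17), Samd12 (of 18), Frmd4a (of 21) and the ankyrin gene Ank2 (of 23). Snx29 spans 436 kb, and at equal covered length Snx29 held none. At 21 loci all of at least 2 regions were missing from C18 alone, with 3 of 3 at Cd109, a membrane protein gene of platelets and activated T cells, and 3 of 3 at F9, the gene of coagulation factor IX.

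Most of the regions had no direct neighbour among the 6-library regions that was also missing. With 9.84% of all 6-library regions missing from C18 alone, this does not show whether they cluster. The run lengths that this share alone would give were not computed. Of 4658 runs of consecutive 6-library regions that were all missing from C18 alone, 4088 held a single region, 23.5% of the regions lay in runs of at least 2, and the longest run held 7. That run spanned 68.1 kb on chromosome 2 (168291848 to 168359935) outside gene bodies, with 7 C18 peaks elsewhere in the span. A run of 4 lay at Tnfsf15, a TNF family cytokine gene (chromosome 4, 63739038 to 63774130), and another of 4 at F9, with no C18 peak across 44.1 kb of chromosome X.

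Genes of the blood lineages were represented near the level of all loci. Over all loci, 8.48% of the 6-library regions were missing from C18 alone. The share was 9.02% at stem and multipotent loci (12 of 133), 9.48% at megakaryocyte loci (11 of 116), 5.22% at erythroid loci (6 of 115), 6.59% at granulocyte and monocyte loci (6 of 91), 11.1% at mast cell, basophil and eosinophil loci (5 of 45) and 7.45% at lymphoid loci (7 of 94). It was 6.22% at haematopoietic transcription factor loci (15 of 241), 9.45% at signalling and cytokine receptor loci (12 of 127), 8.20% at interferon response loci (5 of 61), 6.45% at cell cycle loci (8 of 124), 12.5% at chromatin regulator loci (12 of 96) and 3.85% at housekeeping loci (2 of 52). Macrophage loci had 7.32% (3 of 41), stroma and endothelium loci 4.55% (2 of 44) and non-haematopoietic loci 8.33% (2 of 24). These lists are small, and 1 region moves a share by 1 or more points in most of them.

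Within these lists, Mecom, a transcription factor gene of blood stem cells, held 4 of 19 regions, all with HOMER peaks in all 6 libraries. The strongest ranked 43.5 and 73.1 (C2), 97.2 and 98.1 (C13) and 75.05 and 79.6 (C10) (chromosome 3, 30412811 to 30415101), and was lower in C2 than in C13 by 39.3 rank points (SE 8.06, adjusted p = 0.0071, limma). Ptprj, a receptor phosphatase gene of platelets, held 4 of 20, Dnmt3a, a DNA methyltransferase gene, 3 of 11, the histone deacetylase gene Hdac9 3 of 12, and Tet2, a methylcytosine dioxygenase gene, 2 of 7. The Tet2 regions ranked 45.1 and 25.2 (C2), 85.5 and 79.9 (C13) and 50.7 and 45.2 (C10) at the first, and 46.6 and 50.2, 83.6 and 81.3, and 41.8 and 61.1 at the second, in the same order of populations. Both were higher in C13 than in C10 (adjusted p = 0.0196 and 0.0228, limma). Of the 12 regions at chromatin regulator loci 5 were higher and 0 lower in C13 than in C10 (limma, adjusted p under 0.05), where 22.5% of all regions missing from C18 alone were higher and 4.32% lower, and 9.23% and 13.9% of all regions. With 12 regions this is a description of the list.

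Regions at receptor and lineage genes included calls in both directions. Csf2rb2, a beta chain of the IL-3 receptor, held 2 of 3 regions. The one past the 3′ end of the gene, 26.8 kb from the start site, ranked 69.1 and 81.9 (C2), 30.1 and 38.4 (C13) and 59.5 and 76.1 (C10), while the one 5.37 kb from the start site ranked 16.2 and 16.9 (C2), 65.0 and 72.2 (C13) and 18.2 and 42.5 (C10). The first was lower and the second higher in C13 than in C10 (-33.5, adjusted p = 0.0217, and 38.3, adjusted p = 0.029, limma). Il5ra, the eosinophil IL-5 receptor gene, held 2 of 4, and the region in its gene body was lower in C13 (43.9 and 45.1) than in C10 (80.8 and 78.0; adjusted p = 0.00596, limma). A region in the body of Apex2, 6.46 kb from Alas2, the haem synthesis gene of erythroid cells, was also lower in C13 (22.6 and 9.65) than in C10 (84.5 and 69.5; adjusted p = 0.00489, limma). A region 5.85 kb from the start of Csf3r, the G-CSF receptor gene, was higher in C13 (79.8 and 84.5) than in C10 (10.8 and 44.8; adjusted p = 0.0094, limma). At Vwf, the von Willebrand factor gene, 2 of 10 regions were missing from C18 alone, at Fli1 2 of 13 and at Runx1 1 of 13.

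The loci of the sort markers held 5 such regions of 25 (20%, against 8.48% over all loci), which lay at Cd48, Cd34 and Fcgr2b. With 25 regions, each region moves this share by several points. All markers with a listed window other than Fcgr3 had a peak at the promoter window in all 8 libraries. At Cd48, which is dim on C18 and bright on C10, the regions lay 3.79 kb before the start and 5.16 kb after it. The first ranked 11.1 and 46.1 (C2), 63.7 and 68.4 (C13) and 21.7 and 55.5 (C10), and the second 34.3 and 37.6 (C2), 62.7 and 68.1 (C13) and 49.6 and 46.6 (C10). The second was lower in C2 than in C13 (-29.5, SE 7.10, adjusted p = 0.0138, limma) and did not pass between C13 and C10 (17.3, SE 7.10, adjusted p = 0.113, limma). At Cd34 the 2 regions were weak, with ranks of 13.7 and 37.3 (C2), 46.2 and 41.5 (C13) and 46.2 and 47.4 (C10) at the first. HOMER listed the first in 2 and the second in 1 of the 6 libraries, so that its lack of a C18 peak at both adds nothing. Both lay within 750 bases of a C18 peak, and the other 5 regions of the locus, with mean ranks of 80.8 to 98.3, were each called in at least 1 C18 library. At equal covered length neither Cd48 nor Cd34 held a region missing from C18 alone. Of markers of other cell types, the C1qc promoter window had a peak in all 6 libraries and in neither C18 library, at ranks of 53.3 and 35.2 (C2), 39.5 and 42.7 (C13) and 43.2 and 47.9 (C10), with the nearest C18 peak 198 bases away. The windows of Kdr and Cxcl12, genes of endothelium and stroma, also had a peak in all 6 libraries and in neither C18 library. Unlike at C1qc, this held for the windows only. At these loci 0 of 3 (Kdr) and 0 of 2 (Cxcl12) 6-library regions were missing from C18 alone, since each was called in at least 1 C18 library. The windows of Rag1 and Ptprc had a peak in all 8, that of Il7r in 7, those of C1qb, Marco, Lepr, Ebf1, Mrc1 and Fcer1a in 1 to 5, and those of Pax5, Cd3e, Cd163 and Ms4a2 in none. The part of other cells in the sort was not tested.

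**Figure D5:**
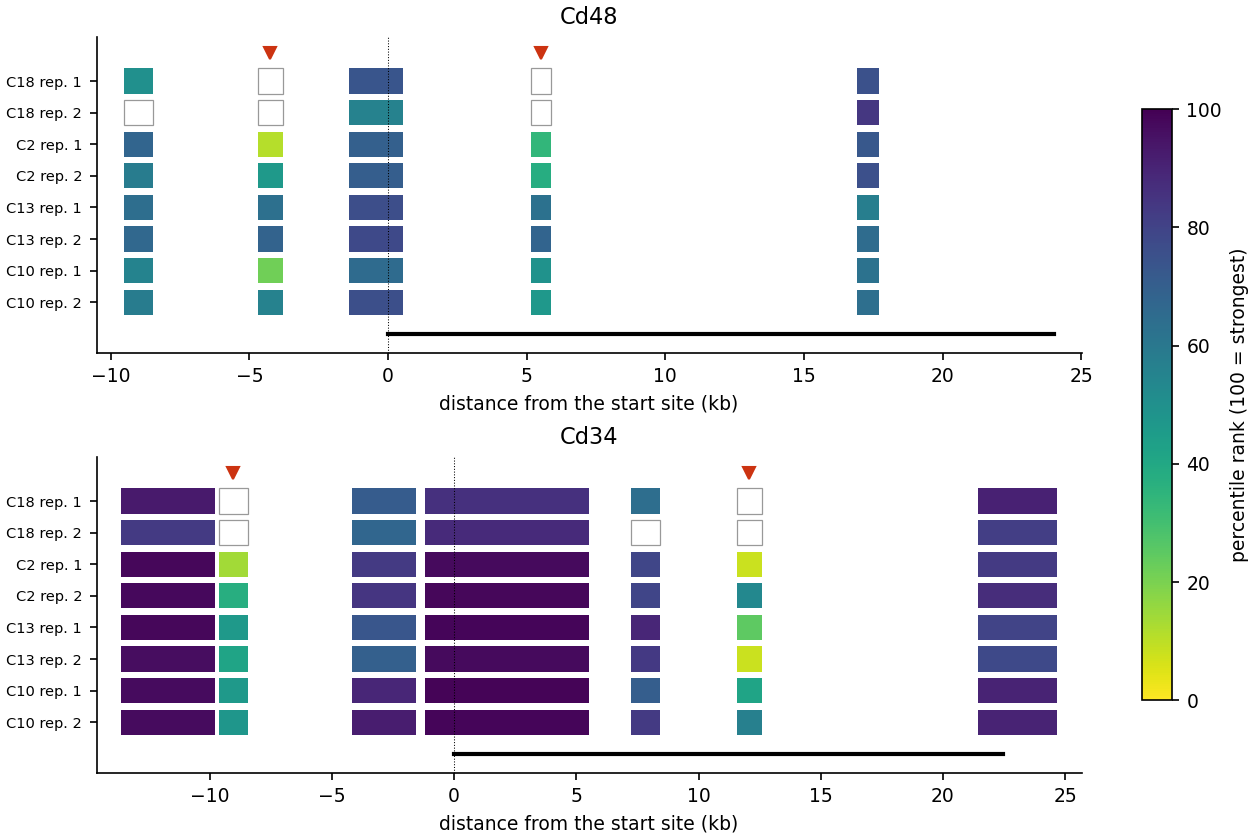
Regions called in all 6 libraries of C2, C13 and C10 at Cd48 and Cd34, by distance from the start site, in each library. Colour gives the percentile rank, open boxes mark no call, red triangles mark regions missing from both C18 libraries, and the black bar is the gene body; at each gene 2 regions have open boxes in both C18 rows, while the region over the start site is filled in all 8.

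At promoters, Siglech had the strongest region of a named protein-coding gene, with ranks of 76.0 and 83.4 (C2), 98.2 and 98.4 (C13) and 90.4 and 89.8 (C10), and no C18 peak within 15.0 kb. It was higher in C13 than in C10 by 8.22 rank points (SE 2.22, adjusted p = 0.0312, limma). The Cd300c promoter ranked 79.6 and 67.7 (C2), 90.5 and 96.2 (C13) and 58.9 and 71.7 (C10) (C13 minus C10 28.1, SE 5.71, adjusted p = 0.0112, limma). At Negr1, a neuronal growth regulator gene, the region was 5429 bases wide and ranked 65.3 and 65.0 (C2), 92.4 and 89.7 (C13) and 64.2 and 59.5 (C10). An RNA start inside Hrh2, the histamine H2 receptor gene, ranked 82.8 and 73.0 (C2), 93.8 and 96.5 (C13) and 73.1 and 79.0 (C10). Tmem144 was nearly level, at 85.0 and 84.2 (C2), 89.6 and 84.9 (C13) and 88.3 and 85.4 (C10). All but Tmem144 were highest in both C13 libraries. The Prf1 promoter ranked 58.7 and 55.7 (C2), 83.5 and 83.5 (C13) and 64.3 and 73.2 (C10), and the Itgax promoter 39.1 and 52.3 (C2), 69.7 and 75.9 (C13) and 60.3 and 63.5 (C10). Of the 191 regions at promoter windows, 23 were higher and 7 lower in C13 than in C10 (limma, adjusted p under 0.05), where 9.23% of all regions were higher and 13.9% lower. The share called higher was thus near that of all regions, and below the 22.5% of all regions missing from C18 alone. The share called lower was below that of all regions, and near the 4.32% of all regions missing from C18 alone. Of the 191, 121 touched the window of a protein-coding gene.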

How the data were processed

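ATAC-seq peak lists of 8 libraries were used, 2 for each population. Per the submitters' processing notes the build is mm10 and the tools include Bowtie 1.0.0 and HOMER 1.0; no F-Seq version is named in those notes or the file headers. The authors deposited, for each library, an F-Seq list of 100000 peaks with a signal value per peak, and HOMER peaks of 150 bases whose score columns carry no names. HOMER peaks were used for presence only. Signal was turned into a percentile rank within each list. No read counts are given, so depth is unknown, and intervals over regions cover counting error only.

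Ranks were tested with limma 3.58.1 (R 4.3.3) over the 54316 regions, in 1 fit of 6 libraries with 3 group means, trended eBayes and p-values adjusted by Benjamini-Hochberg at 0.05, and the fit was tested on simulated data. Positions, start sites and promoter windows are those listed for GRCm38.p6, and 167 regions on chromosome 18 were not assessed for promoters. Distances refer to listed start sites. Genes were named by rule: the 20 loci with most regions, the 20 strongest regions seen by both callers, the first 10 at promoter windows, list genes with a region (up to 6 per list), the 5 smallest p per direction and comparison, and the 5 longest runs. Prf1, Itgax, C1qc, Cxcr2, Csf3r, Tet2, Runx1 and the other promoter windows were also described after their values were seen. The regions and lists were chosen with earlier results of these data known.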

Additional observations from a re-analysis of the deposited data

How the results depend on the processing

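The number of regions missing from C18 alone was 5345. It was 2254 with the 50000 strongest peaks of each list, 820 at equal covered length and 20632 with the HOMER lists, and ranged from 5563 to 10640 with a library left out. It stayed within 1.5 times under the other alternatives, which were a call at 25% of a region, touching peaks kept apart, C18 margins of 250 and 1000 bases, no HOMER peak in C18 and HOMER peaks in all 6 libraries. The share at promoter windows was 3.69%. It was 6.02% with a call at 25% of a region, 6.19% with the 50000 strongest peaks, 4.91% with the HOMER lists, and 3.40% to 5.74% with a library left out, against at least 17.6% of all regions present in the other populations in those lists. The share with a HOMER peak in C18 did not change when 75 bases had to overlap.

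Calls for C13 minus C10 numbered 1431. They numbered 2564 with log2 signal over the library median, 18 with log2 covered bases, 2158 with quantile-normalized signal and 2198 with only the 4 libraries compared, and 72 to 2111 with a library left out. For C2 minus C10 the 244 calls became 604, 0, 588 and 38 under the same alternatives, and 0 to 559 with a library left out. With log2 covered bases 1168 regions had an unadjusted p under 0.05 there. For C2 minus C13 the 2074 calls became 325 with log2 covered bases and 858 to 2104 with a library left out. The cause was not tested. Where a library is left out, the lone library of its population is assumed to vary like the others. Replicate numbers did not pair the libraries (correlations of 0.0137, 0.0421 and 0.174, from 3 pairs of populations). With the replicate number as a block the calls were 1582, 322 and 2148 in the same order. Of the named regions, 1 changed sign, the Snx29 region in C2 minus C10 with log2 covered bases (-0.33 on the log2 scale, adjusted p = 0.417 by limma, against 48.3 rank points). Unknown depth and 2 libraries per population limit these results. C18 had the shortest lists under both callers, so an absence from them is an absence from lists of that extent.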
